A study of Mus musculus with 9 samples.

Results

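The 10 genes described here encode checkpoint and regulatory proteins of T cells. They are the receptors Ctla4, Pdcd1, Lag3, Havcr2, Tigit and Icos, the ligands Cd274, Cd80 and Cd86, and the transcription factor Foxp3. They were chosen by symbol, mapped through the GENCODE M21 annotation of the mouse genome GRCm38, and all 10 were found among the 55450 genes of the deposited tables. All 10 were also among the 20892 genes with enough counts to be tested. RNA of manually dissected substantia nigra was sequenced in 9 libraries from male mice, 3 per group, 5 weeks after lentiviral vectors were injected on both sides. The control group (CTR) is labelled only as GFP (control). The study describes its controls as CX3CR1-CreERT2 mice that received a control vector for destabilized GFP. In the CX3 group, mice of the same Cre line received the Cre-dependent expression vector under study, and in the DAT group DAT-Cre mice received that same vector. Tamoxifen, which activates CreERT2, is described for the CX3CR1-CreERT2 mice, whose Cre is driven by the promoter of a gene of microglia and other myeloid cells, while in DAT-Cre mice the promoter of the dopamine transporter gene drives it. As described, CX3 and CTR therefore differ in the vector. CX3 and DAT differ in the Cre line and, as far as described, in tamoxifen, which cannot be told apart. DAT and CTR differ in Cre line, vector and tamoxifen, which cannot be told apart either.

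T cells are switched on by the T cell receptor together with a second signal, which CD28 and ICOS give. Checkpoint receptors such as CTLA-4, PD-1, LAG-3, TIM-3 (Havcr2) and TIGIT dampen that response, and many of them appear on cells that were activated. Their ligands sit on antigen-presenting cells: CD80 and CD86 bind both CD28 and CTLA-4, and PD-L1 (Cd274) binds PD-1. Foxp3 is the defining transcription factor of regulatory T cells. The healthy brain holds few T cells, and microglia are its resident macrophages.

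Between 21592817 and 39475428 reads were counted on genes per library. A count of 3, the smallest signal taken as countable, equalled 0.0779 to 0.151 CPM, where CPM are counts scaled to the library's size after TMM normalization, and this floor covers counting error only. All pairs of libraries within a group differed by more than random sampling, and DAT B stood apart: the squared difference in counts was 18.1 and 13.2 times that of sampling against DAT A and DAT C, which differed from each other by 2.34 times. Without DAT B, all 10 genes remained lower in DAT than in CTR. The labels do not say whether the libraries of a group came from separate animals, so the p-values measure the spread between libraries, which may be technical. The dopamine transporter gene Slc6a3 had 130.0 CPM in CTR, 195 in CX3 and 91.1 in DAT. The microglial gene Cx3cr1 had 102, 44.6 and 83.4. These are the genes whose promoters drive Cre in the mouse lines. Cx3cr1 was 2.29-fold lower in CX3 than in CTR (edgeR adjusted p = 2.84e-10), although these groups are described as the same Cre line. The cause of this difference was not tested. Markers of neighbouring tissue also moved with the groups. The choroid plexus gene Ttr had 20.03 CPM in CTR, 1457 in CX3 and 853 in DAT, and the pituitary hormone gene Prl had 5.85 CPM in CTR, 0.0539 in CX3 and 0 counts in all 3 DAT libraries, while Pomc, another pituitary gene, had 17.9, 2.73 and 17.2 CPM (edgeR adjusted p = 0.588 for DAT against CTR). The part of these differences in the results below was not tested.

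The promoters of Cd274 (of the 10 genes, the 1 that was higher in CX3 than in CTR), of its receptor gene Pdcd1 and of Foxp3 are shown as the 250 bases before the RefSeq start (GRCm38.p6, 5′ to 3′ on the gene's strand). The RefSeq table held promoters for 7 of the 10 genes. Capitals mark matches, on either strand, to the letters TTCNNNGAA, to TATAAA, or to TTTC followed after 2 bases by TTTC again, which 7.02%, 12.4% and 2.98% of 32851 promoters of the same length hold. No match was found for Cd274, Pdcd1, Ctla4, Havcr2, Tigit or Cd80. The Foxp3 promoters held TATAAA 32 bases before 1 start and TTCCAAGAA 139 bases before the other. A match is a description of letters and not a binding site.
Cd274, chr19:29367188-29367437, plus strand: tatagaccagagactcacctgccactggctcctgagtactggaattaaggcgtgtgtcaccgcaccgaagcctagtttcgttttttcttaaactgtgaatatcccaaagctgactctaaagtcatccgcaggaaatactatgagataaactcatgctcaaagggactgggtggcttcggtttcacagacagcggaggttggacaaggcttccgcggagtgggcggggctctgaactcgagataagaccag
Pdcd1, chr1:94052554-94052803, minus strand: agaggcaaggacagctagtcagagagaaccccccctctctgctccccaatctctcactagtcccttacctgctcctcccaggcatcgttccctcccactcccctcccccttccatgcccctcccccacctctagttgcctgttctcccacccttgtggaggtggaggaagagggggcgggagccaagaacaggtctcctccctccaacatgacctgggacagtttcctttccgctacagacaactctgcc
Foxp3, chrX:7579426-7579675, plus strand: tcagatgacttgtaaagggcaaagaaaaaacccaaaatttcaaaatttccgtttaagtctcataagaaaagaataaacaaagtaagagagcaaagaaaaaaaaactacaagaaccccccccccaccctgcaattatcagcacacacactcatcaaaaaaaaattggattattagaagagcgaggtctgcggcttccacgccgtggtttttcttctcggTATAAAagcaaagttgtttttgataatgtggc
Foxp3, chrX:7580233-7580482, plus strand: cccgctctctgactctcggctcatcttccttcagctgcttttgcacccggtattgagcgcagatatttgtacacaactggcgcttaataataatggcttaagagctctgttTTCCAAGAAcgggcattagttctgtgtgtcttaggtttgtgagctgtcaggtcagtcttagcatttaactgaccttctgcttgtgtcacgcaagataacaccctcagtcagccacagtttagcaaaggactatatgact

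**Figure D1:**
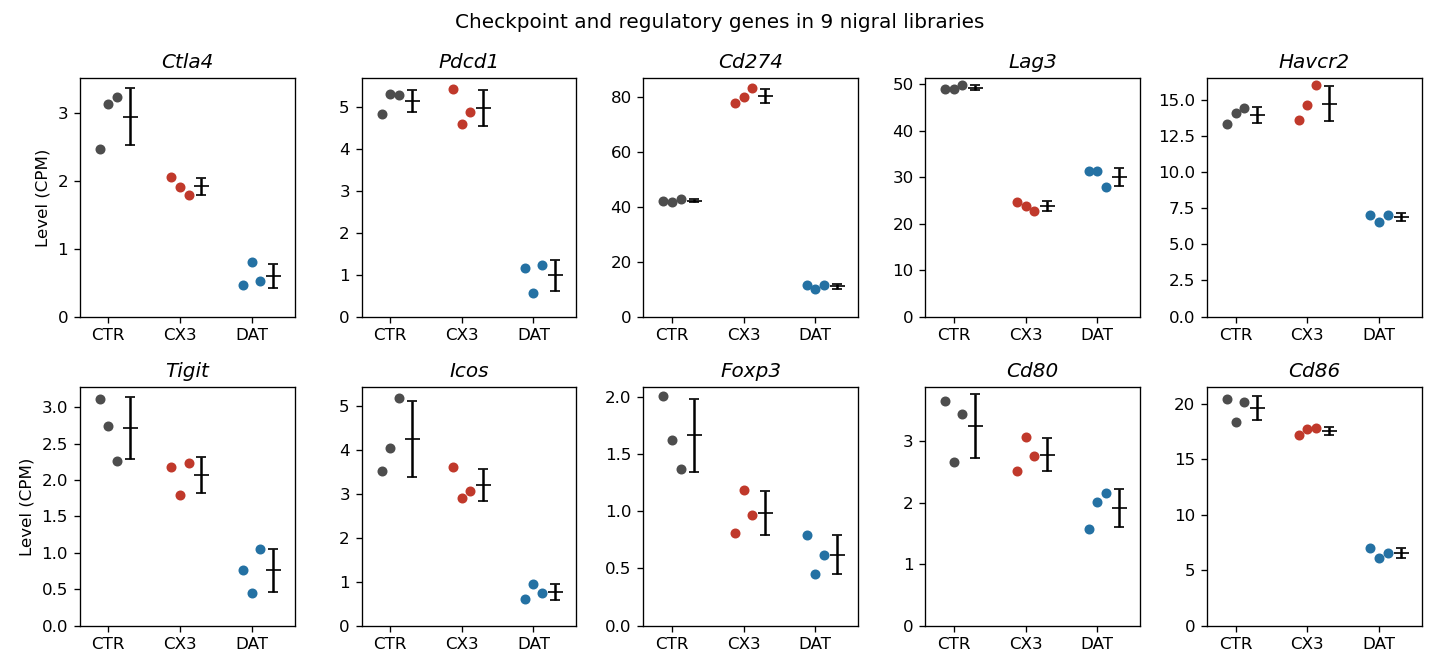
Level of each of the 10 genes in CPM (vertical axes, from 0) in the 9 libraries, with points for libraries and a bar for the mean ± SD of 3 libraries per group. The DAT libraries lie below the CTR libraries for all 10 genes, Cd274 is highest in CX3, and Lag3 is lowest in CX3.

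All 10 genes were lower in DAT than in CTR, against 27.9% of all genes tested that were lower and 59.9% called in either direction (edgeR quasi-likelihood test, Benjamini-Hochberg adjusted p under 0.05 over 20892 genes). Between CX3 and CTR, where 30.5% of all genes were called, 14.0% higher and 16.5% lower, 1 of the 10 was higher (Cd274), 3 were lower (Ctla4, Lag3 and Foxp3) and 6 did not pass the test. In CX3 against DAT, where 58.9% of all genes were called, 27.6% higher and 31.3% lower, 8 of the 10 were higher in CX3, 1 was lower (Lag3) and Foxp3 did not pass. The median log2 difference of the 10 genes was -1.69 in DAT against CTR, -0.30 in CX3 against CTR and 1.42 in CX3 against DAT, beside medians of 0.00, 0.00 and 0.01 over all genes tested. The libraries of the groups did not overlap for all 10 genes in DAT against CTR, beside 64.1% of all genes tested (30.6% not overlapping and lower in DAT). Between CX3 and CTR they did not overlap for 6 of the 10, beside 49.3% of all genes, and 5 of these were lower in CX3, beside 25.4%. Between CX3 and DAT they did not overlap for all 10, beside 61.0%, and 1 of these was lower in CX3, beside 32.2%. These comparisons share libraries. In bulk tissue, fewer cells of a type and less RNA per cell cannot be told apart.

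Among the inhibitory receptors, Ctla4 (ENSMUSG00000026011.13, chromosome 1 from 60887000 to 60915832, plus strand), which competes with CD28 for CD80 and CD86, had 75, 114 and 97 counts in CTR A to C, 79, 66 and 69 in CX3 A to C, and 17, 16 and 12 in DAT A to C. The 3 groups did not overlap in CPM, with CTR highest and DAT lowest. Its level was 2.94 ± 0.419 CPM in CTR, 1.92 ± 0.128 in CX3 and 0.599 ± 0.181 in DAT (SD, n = 3 libraries each). In DAT the log2 difference from CTR was -2.35 (SE 0.217, edgeR adjusted p = 3.92e-07), a 4.91-fold lower level. In CX3 it was -0.62 (SE 0.163, edgeR adjusted p = 0.0108), a call that was lost without CTR B (adjusted p = 0.0532), without CTR C (0.0527) or with reverse-strand counts (0.151).

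Pdcd1 (ENSMUSG00000026285.7, chromosome 1 from 94038305 to 94052553, minus strand) encodes PD-1. It had 147, 193 and 158 counts in CTR, 209, 159 and 187 in CX3, and 42, 11 and 28 in DAT. CTR and CX3 overlapped, at 5.13 ± 0.264 and 4.96 ± 0.425 CPM, while all DAT libraries lay lower, at 0.978 ± 0.370 CPM. The log2 difference between CX3 and CTR was -0.05 with a 95% interval from -0.34 to 0.24 (edgeR adjusted p = 0.823). In DAT the level was 5.25-fold lower than in CTR (log2 difference -2.33, SE 0.185, edgeR adjusted p = 8.82e-08).

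Tigit (ENSMUSG00000071552.5, chromosome 16 from 43648867 to 43664146, minus strand), a receptor for the nectin-family ligands Pvr and Nectin2, had 95, 100 and 68 counts in CTR, 84, 62 and 86 in CX3, and 28, 9 and 24 in DAT. Levels were 2.71 ± 0.428, 2.07 ± 0.244 and 0.758 ± 0.300 CPM. The CX3 libraries lay just below the CTR libraries, a difference that did not pass the test (log2 difference -0.39, 95% interval -0.79 to 0.01, edgeR adjusted p = 0.135). The DAT libraries lay well below both groups, 3.58-fold lower than CTR (edgeR adjusted p = 1.21e-05).

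Havcr2 (ENSMUSG00000020399.14, chromosome 11 from 46454935 to 46481255, plus strand) encodes TIM-3, a receptor of T cells and also of myeloid cells including microglia. Its counts were 405, 511 and 433 in CTR, 522, 506 and 614 in CX3, and 257, 130 and 160 in DAT. CTR (13.9 ± 0.575 CPM) and CX3 (14.7 ± 1.22) overlapped, with a log2 difference of 0.08 and a 95% interval from -0.08 to 0.24 (edgeR adjusted p = 0.449). DAT, at 6.87 ± 0.287 CPM, was 2.03-fold lower than CTR (log2 difference -1.01, edgeR adjusted p = 1.39e-07).

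Lag3 (ENSMUSG00000030124.2, chromosome 6 from 124904361 to 124911705, minus strand), a receptor for MHC class II that is also transcribed by other cells of the brain, had a different order. Its counts were 1495, 1782 and 1498 in CTR, 952, 827 and 870 in CX3, and 1140, 622 and 635 in DAT. The 3 groups did not overlap in CPM, and here CX3 was lowest: 49.3 ± 0.533 CPM in CTR, 23.8 ± 1.04 in CX3 and 30.1 ± 1.97 in DAT. Lag3 was 2.08-fold lower in CX3 than in CTR (log2 difference -1.05, SE 0.0563, edgeR adjusted p = 7.75e-09) and 1.64-fold lower in DAT than in CTR (-0.71, SE 0.0569, 9.9e-08). It was the only one of the 10 genes with a lower level in CX3 than in DAT, 1.27-fold (log2 difference -0.35, SE 0.0588, edgeR adjusted p = 0.000163), a difference that did not pass a test against a fold of 1.5.

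Icos (ENSMUSG00000026009.14, chromosome 1 from 60977927 to 61000320, plus strand), the inducible costimulatory receptor of activated T cells, had 107, 147 and 156 counts in CTR, 139, 101 and 118 in CX3, and 22, 19 and 17 in DAT. CX3 overlapped with CTR and DAT lay below both, at 4.25 ± 0.863 CPM in CTR, 3.20 ± 0.363 in CX3 and 0.768 ± 0.177 in DAT. DAT was 5.53-fold lower than CTR (log2 difference -2.52, SE 0.217, edgeR adjusted p = 2.01e-07). Between CX3 and CTR the log2 difference was -0.40 (edgeR adjusted p = 0.0692), which passed without CTR A (0.0402), CX3 A (0.0486) or DAT B (0.0369).

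Of the ligands, Cd274 (ENSMUSG00000016496.7, chromosome 19 from 29367455 to 29388095, plus strand), which encodes PD-L1, was the gene that rose in CX3. It had 1285, 1520 and 1279 counts in CTR, 2994, 2768 and 3186 in CX3, and 412, 200 and 264 in DAT. The groups were far apart, at 42.2 ± 0.443, 80.2 ± 2.62 and 11.0 ± 0.811 CPM. Cd274 was 1.90-fold higher in CX3 than in CTR (log2 difference 0.93, SE 0.0502, edgeR adjusted p = 8.9e-09) and 3.84-fold lower in DAT than in CTR (-1.93, SE 0.0603, 7.67e-12). CX3 was 7.31-fold higher than DAT (log2 difference 2.86, SE 0.0591, edgeR adjusted p = 1.8e-13). Cd274 shares 14.1% of its exon bases with the antisense gene AC119228.1, which had 64 to 70 counts in CTR, 144 to 182 in CX3 and 0 to 7 in DAT. Reads on shared bases are left out when strand is ignored. In CTR A, Cd274 had 42.2 CPM in this way and 55.4 with reverse-strand counts, which were scaled to library size without TMM.

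Cd86 (ENSMUSG00000022901.13, chromosome 16 from 36603869 to 36666081, minus strand) had 621, 669 and 604 counts in CTR, 661, 613 and 685 in CX3, and 255, 121 and 149 in DAT. CX3 (17.6 ± 0.358 CPM) lay slightly below CTR (19.6 ± 1.10), and DAT (6.54 ± 0.453) far below both. The level in DAT was 3.00-fold lower than in CTR (log2 difference -1.57, SE 0.0752, edgeR adjusted p = 5.09e-10). The log2 difference between CX3 and CTR was -0.16 (edgeR adjusted p = 0.0752) and passed without DAT B (0.0476).

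Cd80 (ENSMUSG00000075122.5, chromosome 16 from 38455561 to 38496335, plus strand), the other ligand of CD28 and CTLA-4, changed least in DAT among the ligands. Its counts were 111, 97 and 103 in CTR, 97, 106 and 106 in CX3, and 57, 40 and 49 in DAT. CX3 and CTR overlapped (2.78 ± 0.272 and 3.25 ± 0.516 CPM; log2 difference -0.22, edgeR adjusted p = 0.319), and DAT was lower at 1.91 ± 0.307 CPM, 1.70-fold below CTR (edgeR adjusted p = 0.00137). The difference between CX3 and DAT (log2 0.57, edgeR adjusted p = 0.0121) was lost without DAT A (0.0785).

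Foxp3 (ENSMUSG00000039521.13, chromosome X from 7573644 to 7595245, plus strand) is uncertain. It had 61, 59 and 41 counts in CTR, 31, 41 and 37 in CX3, and 29, 9 and 14 in DAT, or 1.66 ± 0.320, 0.984 ± 0.190 and 0.621 ± 0.171 CPM. The groups did not overlap. Foxp3 was lower in CX3 (log2 difference -0.76, SE 0.222, edgeR adjusted p = 0.0187) and in DAT (-1.35, SE 0.256, 0.000384) than in CTR. The CX3 call was lost without CTR A (edgeR adjusted p = 0.0960), CTR B (0.0509), CX3 A (0.0658) or CX3 C (0.0550). Between CX3 and DAT the log2 difference was 0.59 (95% interval 0.01 to 1.18, edgeR adjusted p = 0.0757), which passed without CX3 A (0.0427) or DAT A (0.0419). The gene shares 31.5% of its exon bases with Ccdc22, Flicr, Gm36995 and Ppp1r3f. Of these, Ccdc22, Gm36995 and Ppp1r3f lie on the opposite strand, with 12.9%, 8.15% and 5.81% of the exon bases. Reverse-strand counts gave 8.89 to 12.8 CPM for Foxp3 (scaled to library size without TMM), far above the level in counts of both strands. With them neither difference from CTR passed (log2 -0.08 for CX3 and -0.20 for DAT). Because both strands hold about equal shares of counts here, a strand-specific column can count reads of opposite-strand genes as Foxp3. The part of such reads was not tested.

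**Figure D2:**
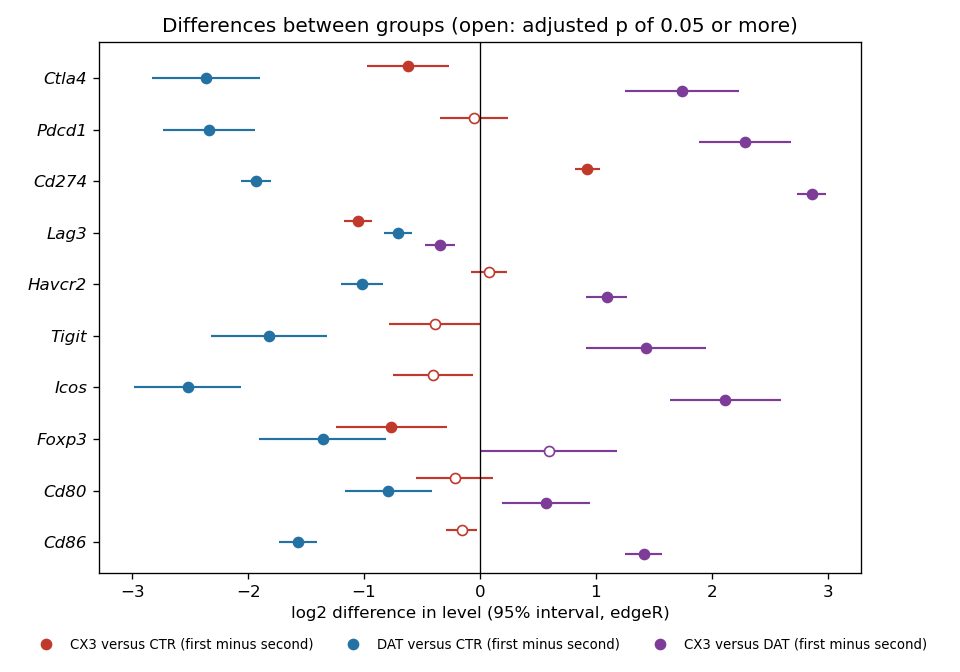
Differences between groups in log2 CPM (horizontal axis) for the 10 genes, with 95% intervals from edgeR, filled where the adjusted p was under 0.05. All DAT values lie below 0 against CTR, and Lag3 is the gene below 0 in all 3 comparisons.

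The direct comparison of the groups with the same vector gave a higher level in CX3 than in DAT for the T cell receptors apart from Lag3. The difference was 5.07-fold for Pdcd1, 4.16-fold for Icos, 3.20-fold for Ctla4 and 2.73-fold for Tigit, with edgeR adjusted p from 1.04e-07 (Pdcd1) to 0.000138 (Tigit). Cd86 was 2.69-fold and Havcr2 2.14-fold higher in CX3.

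Levels of different genes were compared per kilobase of exon. In CTR, Lag3 stood first at 23.4 CPM per kilobase, followed by Cd274 at 11.7, then Cd86 (5.36) and Havcr2 (5.12), which overlapped. Tigit (2.95) and Pdcd1 (2.66) overlapped, as did Ctla4 (1.26) and Icos (1.24), ahead of Cd80 (0.877) and Foxp3 (0.363). The place of Foxp3 is uncertain. Counts that ignore strand leave out reads on its shared bases, while reverse-strand counts can include reads of opposite-strand genes. With reverse-strand counts, scaled without TMM, Foxp3 stood at 2.63 CPM per kilobase in CTR, above Cd80 (0.790), Ctla4 (1.13) and Icos (1.32). In CX3 the first places were exchanged, with Cd274 at 22.1 and Lag3 at 11.3 CPM per kilobase. In DAT, Lag3 was first again at 14.3 and Cd274 followed at 3.03.

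The T cell markers also differed between the groups. All 13 T cell markers were lower in DAT than in CTR, beside 27.9% of all genes tested, and 7 of 13 were lower in CX3 than in CTR, beside 16.5%. Their summed level was 90.5 to 93.0 CPM in CTR, 72.5 to 76.8 in CX3 and 24.4 to 28.5 in DAT. The median log2 difference of the markers was -1.73 in DAT and -0.36 in CX3. Cd8a, the coreceptor of cytotoxic T cells, had 15.3 CPM in CTR, 14.8 in CX3 and 3.47 in DAT. The receptor chain gene Trac had 10.7, 9.29 and 3.47 CPM, and the kinase gene Lck 10.6, 8.17 and 3.90.

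**Figure D3:**
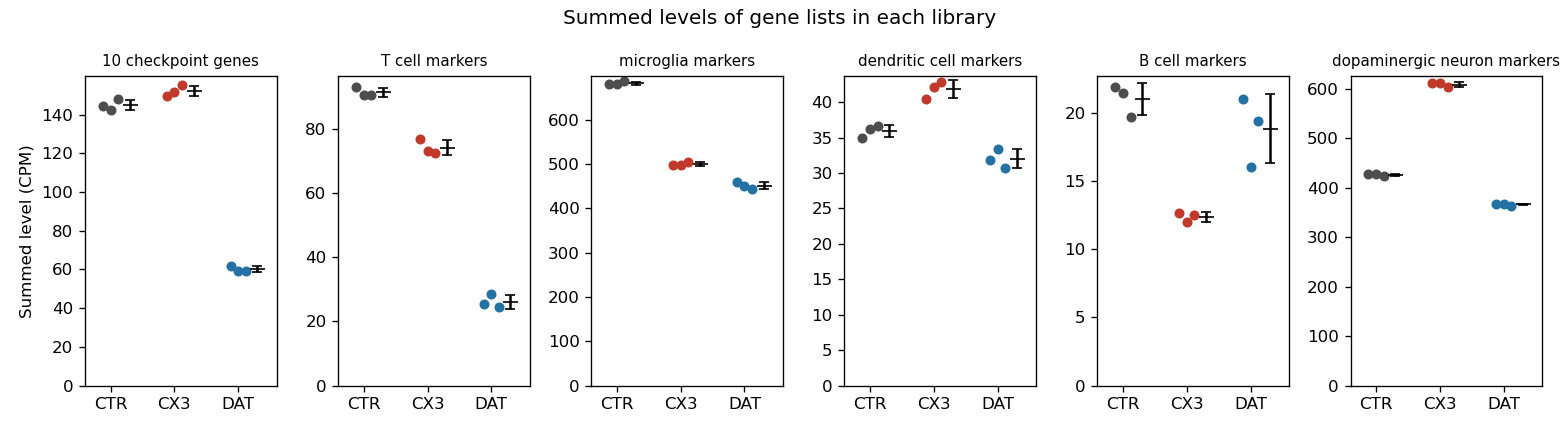
Summed level in CPM (vertical axes, from 0) of the 10 genes and of 5 marker lists in each of the 9 libraries, with the mean ± SD of 3 libraries per group. The 10 genes together lie at 59.2 to 61.9 CPM in DAT, against 143 to 148 in CTR and 150 to 155 in CX3, and the T cell markers are also lowest in DAT.

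To set the receptors and Foxp3 against the T cell signal, their counts were divided by the summed counts of the T cell receptor complex genes Cd3d, Cd3e and Cd3g, which were 617, 745 and 623 in CTR, 692, 558 and 636 in CX3, and 174, 104 and 103 in DAT. Per 100 Cd3 counts, DAT and CTR overlapped for Ctla4, Pdcd1, Tigit, Icos and Foxp3, but for 4 of these the overlap rested on DAT B. Without DAT B, the remaining DAT libraries lay below CTR for Ctla4 (9.77 to 11.7 against 12.2 to 15.6) and for Icos (12.6 to 16.5 against 17.3 to 25.0). They lay above CTR for Tigit (16.1 to 23.3 against 10.9 to 15.4) and for Foxp3 (13.6 to 16.7 against 6.58 to 9.89), and only Pdcd1 still overlapped among these 5 genes. For Icos and Foxp3 the overlap rested on CTR A as well. DAT B, at 18.3 for Icos and 8.65 for Foxp3, overlapped with CTR A (17.3 and 9.89) but not with CTR B (19.7 and 7.92) or CTR C (25.0 and 6.58). DAT A and DAT C held only 12 to 29 counts for each of the 4 genes. Ctla4 was at 14.3 ± 1.90 in CTR, 11.4 ± 0.492 in CX3 and 12.3 ± 2.86 in DAT. Pdcd1 was at 25.0 ± 1.08, 29.4 ± 0.854 and 20.6 ± 8.84, and its CX3 libraries lay above those of both other groups. For Pdcd1 the lowest DAT value, 10.6, came from the 11 counts of DAT B.

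Lag3 differed from the other receptors on this scale. It had more counts than the Cd3 genes together in all 9 libraries, at 241 ± 1.56 per 100 Cd3 counts in CTR, 141 ± 6.38 in CX3 and 623 ± 29.1 in DAT, and the 3 groups did not overlap. Over 18 comparisons (6 genes, 3 contrasts), 7 had groups that did not overlap, and 13 without DAT B. The smallest two-sided exact permutation p that 3 against 3 libraries allow is 0.1, which is 0.257 after Benjamini-Hochberg adjustment here, so none could pass.

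**Figure D4:**
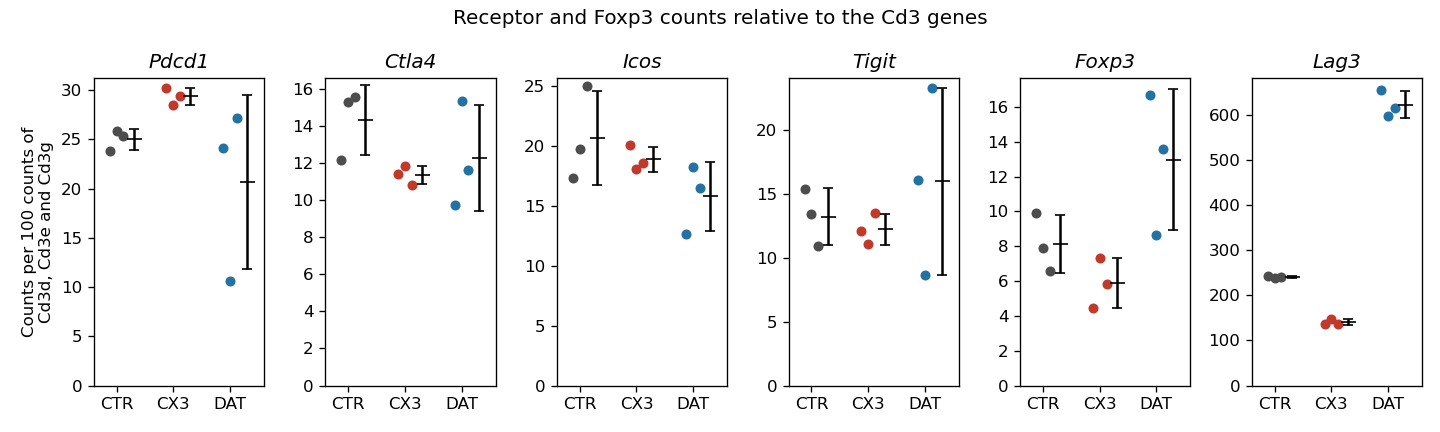
Counts of 5 receptor genes and Foxp3 per 100 summed counts of Cd3d, Cd3e and Cd3g (vertical axes, from 0) in the 9 libraries, with the mean ± SD of 3 libraries per group. DAT overlaps with CTR for Pdcd1, Ctla4, Icos, Tigit and Foxp3. For the last 4 the overlap rests on DAT B, and for Icos and Foxp3 on CTR A as well. For Lag3 the DAT libraries lie at 598 to 655, above all others.

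Microglia and dendritic cells also carry the ligands and Havcr2. The 8 microglia markers summed to 680 to 687 CPM in CTR, 498 to 504 in CX3 and 445 to 460 in DAT. Per 1000 microglia-marker counts, a scale chosen after the data were seen and given without a test, Cd274 was at 61.8 ± 0.419 in CTR, 160 ± 4.31 in CX3 and 24.3 ± 1.86 in DAT. Cd86 was at 28.8 ± 1.57, 35.1 ± 0.612 and 14.5 ± 0.869 and Havcr2 at 20.4 ± 0.752, 29.4 ± 2.26 and 15.2 ± 0.638, so on this scale both were higher in CX3 than in CTR. Cd80 was at 4.76 ± 0.753, 5.56 ± 0.554 and 4.23 ± 0.745. Of 8 dendritic cell markers, 4 were higher and 1 lower in CX3 than in CTR, beside 14.0% and 16.5% of all genes tested. Their sum was 34.9 to 36.7 CPM in CTR, 40.4 to 42.9 in CX3 and 30.8 to 33.4 in DAT. Flt3, the highest of them, hardly moved (19.3, 19.0 and 19.1 CPM). Xcr1 rose from 0.775 CPM in CTR to 3.16 in CX3 and Clec9a from 1.11 to 3.31, while Ccr7 fell from 2.34 to 1.42. The last 3 genes were named after their values were seen. The part of these cell types in the levels of the ligands was not tested.

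Of 17 further inhibitory receptors and ligands tested, 10 were lower and 3 higher in DAT than in CTR, and 2 were lower and 4 higher in CX3 than in CTR. Over all genes tested, 27.9% were lower and 32.0% higher in DAT, and 16.5% were lower and 14.0% higher in CX3. The same shares stand beside the costimulatory and regulatory T cell genes below. Cd200, a ligand through which neurons restrain myeloid cells, was higher in DAT (162 CPM against 118 in CTR, edgeR adjusted p = 2.77e-06) and at 117 CPM in CX3 (0.929). Vsir, which encodes the checkpoint protein VISTA, was lower in CX3 (54.8 CPM) and in DAT (53.0) than in CTR (74.5). Lair1, an inhibitory collagen receptor, was lower in DAT at 17.4 CPM against 39.9 in CTR, and had 37.6 in CX3 (edgeR adjusted p = 0.225 against CTR). Pdcd1lg2, the other ligand of PD-1, was named after its values were seen, because it pairs with Pdcd1. It had 9 to 14 counts in CTR, 21 to 38 in CX3 and 1 to 7 in DAT, and was higher in CX3 than in CTR (log2 difference 1.14, SE 0.340, edgeR adjusted p = 0.0205).

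Of 13 costimulatory genes tested, 11 were lower in DAT than in CTR, and 4 were lower and 2 higher in CX3. The ICOS ligand gene Icosl fell from 17.7 CPM in CTR to 14.2 in CX3 (edgeR adjusted p = 0.00179) and 12.1 in DAT (8.9e-06). Cd48 and Cd2, an adhesion pair of T cells and their partners, were also lower in both groups, with Cd2 at 6.25 CPM in CTR, 4.24 in CX3 and 1.86 in DAT.

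Of 12 other regulatory T cell genes, 6 were lower and 3 higher in DAT than in CTR, and 3 were lower and 2 higher in CX3. Entpd1, which encodes the ectonucleotidase CD39, was at 51.6 CPM in CTR, 46.4 in CX3 and 24.9 in DAT. Tgfb1 was higher in CX3 (14.2 CPM against 11.1, edgeR adjusted p = 0.00187), while Gpr83 was lower in CX3 (6.10 against 10.6) and higher in DAT (15.5). In CTR, Entpd1, Tgfb1 and Gpr83 all stood above Foxp3 (1.66 CPM). Which cells carry the genes of this list was not tested. Of 12 transcription factors of activation and exhaustion, 3 were lower and 3 higher in DAT, beside 27.9% and 32.0% of all genes tested. In CX3, 4 were lower and 0 higher, beside 16.5% and 14.0%. Tox2 was 2.98-fold higher in DAT than in CTR (edgeR adjusted p = 1.36e-11). Tox was higher in DAT at 21.8 CPM against 15.7, and Nr4a1 was lower in CX3 at 13.9 CPM against 23.1. Tox2 stood at 88.4 CPM in DAT, where the T cell gene Cd3g had 2.04. Irf4, Prdm1 and Batf were named after their values were seen. They had 5.74, 4.43 and 1.53 CPM in CTR and 0.759, 1.57 and 0.621 in DAT. Which cells carry these factors was not tested.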

How the data were processed

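The authors deposited raw counts of reads per gene for each of 9 bulk libraries, not normalized, in 1 column that ignores strand and 2 that do not. Per the labels and methods, reads were trimmed with Trimmomatic and aligned with STAR to mm10. The methods name featureCounts, while the layout is that of STAR's own gene counts, and versions are not given in the sources used here. The kit is stranded, yet the reverse strand held 49.8% to 49.9% of strand-specific counts, so the column that ignores strand was analysed. Reads assigned to no gene were left out (unmapped reads were 13.8% to 22.0%). The insert of the vector under study is not reported here.

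Genes passing filterByExpr (minimum count 10, minimum total 15) were scaled by TMM and tested with edgeR 4.0.16 (quasi-likelihood, R 4.3.3), all 9 libraries in 1 fit with a mean per group, with Benjamini-Hochberg adjustment over all genes tested and a threshold of 0.05. SE come from the fold change and F statistic. The test was checked on simulated counts. Alternatives were DESeq2 1.42.0, other scalings, filters and strands, 2-group fits, a replicate block, a fold of 1.5 and leaving out each library. Ratios used scipy 1.17.1. The 10 genes and the lists were chosen with earlier results of these data known. Named genes were the 10, the genes of the Cre promoters and the 3 highest of each list by mean CPM over all libraries, of which those that bear on the 10 are printed. Pdcd1lg2, Prl, Irf4, Prdm1, Batf, Xcr1, Clec9a, Ccr7 and the scale per microglia-marker count were added after values were seen. The letters of each promoter search are given with the sequences. Library letters were not used to pair the samples in the main fit.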

Additional observations from a re-analysis of the deposited data

How the results depend on the processing

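Of 570 member results under alternatives, 541 kept direction and side of the threshold, 16 lost the call, 9 gained it and 4 turned. The turned ones were Pdcd1 in CX3 against CTR (0.0754 with reverse-strand counts, and -0.118 to 0.00529 when single libraries were left out) and Foxp3 with forward-strand counts (0.00893 in DAT against CTR, -0.100 in CX3 against DAT). Members lower in CX3 than in CTR numbered 3, beside 3444 of all 20892 genes tested. They numbered 1 with reverse-strand counts (beside 2844 of 20411 genes) or a fold of 1.5 (356 of 20892). When only the 2 groups were fitted they numbered 5, beside 4309 of 20742 genes. With single libraries left out they numbered 1 to 5, beside 2624 (without CTR B) to 4379 genes (without DAT B). With a fold of 1.5, all called genes fell to 529, 3773 and 3780 in CX3 against CTR, DAT against CTR and CX3 against DAT. In that setting 0 members were lower in CX3 than in DAT, beside 1706 of 20892 genes tested. Scaling by library size alone moved the share of higher calls from 45.9% to 58.9%, 53.4% to 37.8% and 46.8% to 66.7%, with a median over all genes of -0.15 in DAT against CTR and 0.20 in CX3 against DAT. With a replicate block, 5805, 12144 and 11955 genes were called and no member call changed. In deviations from group means, same-letter libraries of different groups correlated at -0.16 to 0.04 and different-letter libraries at -0.12 to 0.16. Deviations from a mean of only 3 libraries depend on each other. The check therefore cannot settle whether libraries of the same letter belong together.

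Of 216 ratio results, 12 turned. Per 100 Cd3 counts, Ctla4 in CX3 minus DAT was 0.850 with forward-strand counts and 1.98 per 100 counts of Trac, Trbc1 and Trbc2, and Ctla4 in DAT minus CTR was 0.232 with reverse-strand counts. Tigit per those receptor counts was -1.33 in DAT minus CTR and 0.324 in CX3 minus DAT. Foxp3 in CX3 minus CTR was 8.22 and 7.65 with reverse- and forward-strand counts, which can include reads of opposite-strand genes. With single libraries left out, the differences ranged from -2.15 to 0.654 (Ctla4, CX3 minus DAT), -3.47 to 0.377 (Icos, CX3 minus CTR), -7.67 to 0.630 (Pdcd1, DAT minus CTR), -2.15 to 0.0884 (Tigit, CX3 minus CTR) and -0.872 to 6.45 (Tigit, DAT minus CTR), and the comparisons without overlap from 7 to 13. The cause was not tested. Genes near 10 counts, such as Foxp3, Tigit and Pdcd1 in DAT B, are limited by depth.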

Other observations

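Markers of other cell types, which do not belong to the comparisons above, also differed between the groups. Over all genes tested, 27.9% were lower and 32.0% higher in DAT than in CTR, and 16.5% were lower and 14.0% higher in CX3. Of 5 B cell markers, 4 were lower in CX3 than in CTR, and in DAT 4 were lower and 1 higher. Cd79a, part of the B cell receptor, had 5.63 CPM in CTR, 1.3 in CX3 and 1.39 in DAT, while Pax5 was higher in DAT (15.7 CPM against 8.55). Of 5 tested monocyte and neutrophil markers, 5 were lower in DAT, and in CX3 3 were lower and 1 higher. The monocyte gene Ly6c2 fell from 39.2 CPM in CTR to 8.70 in CX3 and 2.40 in DAT, while Ccr2, the receptor that guides monocytes into tissue, was higher in CX3 at 9.72 CPM against 3.79. Of 5 natural killer cell markers, only 1 had enough counts to be tested. This gene, Klre1, had 2.07 CPM in CTR, 1.66 in CX3 (edgeR adjusted p = 0.217) and 0.178 in DAT. Ncr1, Klrb1c, Klra7 and Klrb1a went the other way in CX3, each with a higher mean than in CTR. Their means were low, at 0.0312 to 0.179 CPM in CTR and 0.0540 to 0.268 in CX3. Of 5 red blood cell markers, 5 were lower in CX3 than in CTR and 3 in DAT. Of 7 dopaminergic neuron markers, 6 were higher in CX3 than in CTR, and in DAT 2 were higher and 3 lower.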
